A study of Mus musculus with 4 samples.

Results

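Hedgehog signalling genes were followed in cultured primary cells of the mouse inner ear by RNA sequencing. The 9 genes were Boc, Cdon, Gas1, Ptch1, Smo, Gli1, Gli2, Gli3 and Hhip, taken by gene symbol from the 24346 symbols listed for each sample, and each of the 9 was found. Primary culture of vestibular cells, from the part of the inner ear that senses head movement and gravity, was the label of 2 samples. Primary culture of cochlear cells, from the part that senses sound, was the label of 2 samples. The libraries are called vestibular 1, vestibular 2, cochlear 1 and cochlear 2. The labels give the organism (Mus musculus), the tissue (inner ear) and these culture types, and no treatment or mutation for either group. The sources used here give no strain, age, passage or number of animals, and nothing states that the samples of a group came from separate cultures or animals. The p-values and SDs therefore measure the spread between these samples, which may be technical, and n counts libraries.

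Hedgehog ligands (Shh, Ihh and Dhh) are secreted proteins that bind the receptor Ptch1. Without ligand, Ptch1 holds the membrane protein Smo inactive at the primary cilium, and Gli3 and part of Gli2 are cut into repressors of transcription. Ligand bound to Ptch1 with a co-receptor (Boc, Cdon or Gas1) frees Smo, full-length Gli2 and Gli3 activate genes, and Gli1, Ptch1 and Hhip are among the genes switched on, so that their RNA is a usual readout of the pathway. Hhip binds ligand at the cell surface and limits its spread. In the developing inner ear, Shh from the notochord and floor plate patterns the ventral otocyst, from which the cochlea grows.

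Values are FPKM (fragment numbers divided by transcript length and by the size of the library), so levels of different genes can be set side by side within a library. Of the 9 genes, 8 had a mean of at least 1 FPKM over the 4 samples and entered the fit across 13200 genes, and Gli1 did not. Differences are vestibular minus cochlear of log2(FPKM + 1), a scale that shrinks differences between low values, and were tested with limma, 2-sided, with Benjamini-Hochberg adjustment over all 13200 genes and a threshold of 0.05. With 2 libraries against 2, the smallest exact permutation p is 0.33, so each p below depends on limma's sharing of the spread over genes. The total FPKM ranged from 479380 to 519122 per library, and the sources used here give no fragment numbers per library, so no counting interval can be given. The ribosomal protein gene Rpl26 was listed at 0 in all 4 libraries, so a value of exactly 0 is reported as a listing and not as a silent gene.

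The cultures were mixtures of cell types that differed between libraries. Over all genes tested, 6788 of 13200 had a difference above 0 and 6412 one below 0. Fibroblast marker genes had differences above 0 in 13 of 13 members, with summed levels of 3373 and 6568 FPKM in vestibular 1 and vestibular 2, against 1571 and 1061 FPKM in cochlear 1 and cochlear 2. Epithelial markers had differences below 0 in 12 of 12, with sums of 1184 and 108 FPKM in the vestibular libraries, against 2082 and 2532 FPKM in the cochlear libraries. The 10 macrophage markers summed to 8302 and 6347 FPKM in the vestibular libraries and to 6396 FPKM in cochlear library 1, against 23.5 FPKM in cochlear library 2. The 12 cartilage markers summed to 923 and 4847 FPKM in vestibular 1 and vestibular 2, against 574 and 1109 FPKM in the cochlear libraries. The 8 hair cell markers summed to 25.6 and 37.3 FPKM in the vestibular libraries, against 24.9 and 23.8 FPKM in the cochlear libraries. Most of that sum came from the myosin genes Myo6 (9.66 to 24.5 FPKM over the 4 libraries) and Myo7a (5.81 to 13.4 FPKM), while Atoh1 reached at most 0.1001 FPKM, Slc26a5 0.0251, Tmc1 0.512, Pou4f3 1.005 and Otof 1.63 FPKM. The 6 endothelial markers summed to 7.60 and 14.4 FPKM in the vestibular libraries, against 3.35 and 8.64 FPKM in the cochlear libraries, with Cdh5 at up to 10.7 FPKM in vestibular library 2, Tek at up to 6.002 FPKM and Pecam1 at up to 0.155 FPKM. The 7 glial markers summed to 77.3 and 208 FPKM in the vestibular libraries, against 167 and 159 FPKM in the cochlear libraries, and its members differed in direction. Sox10 had 37.7 and 15.5 FPKM in the vestibular libraries, against 108 and 100.4 FPKM in the cochlear libraries, whereas S100b had 14.2 and 178 FPKM in the vestibular libraries, against 4.32 and 2.36 FPKM in the cochlear libraries. The 7 pericyte and smooth muscle markers summed to 264 and 417 FPKM in the vestibular libraries, against 140.3 and 118 FPKM in the cochlear libraries. In such bulk samples, fewer cells of a type and less RNA per cell cannot be told apart.

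The hedgehog genes fell into an abundant and a scarce set. Boc, Cdon, Gas1 and Smo had values between 14.2 and 144 FPKM, above the median of the genes kept (11.8 to 12.2 FPKM) in all 4 libraries. Ptch1, Gli1, Gli2, Gli3 and Hhip had between 0 and 8.79 FPKM, below that median in all 4 libraries. Both kinds of culture thus had more RNA, per length, of the co-receptor genes and Smo than of the Gli factors and the feedback genes Ptch1 and Hhip. The plot of levels by library shows this gap and the distance between libraries of the same group.

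**Figure D1:**
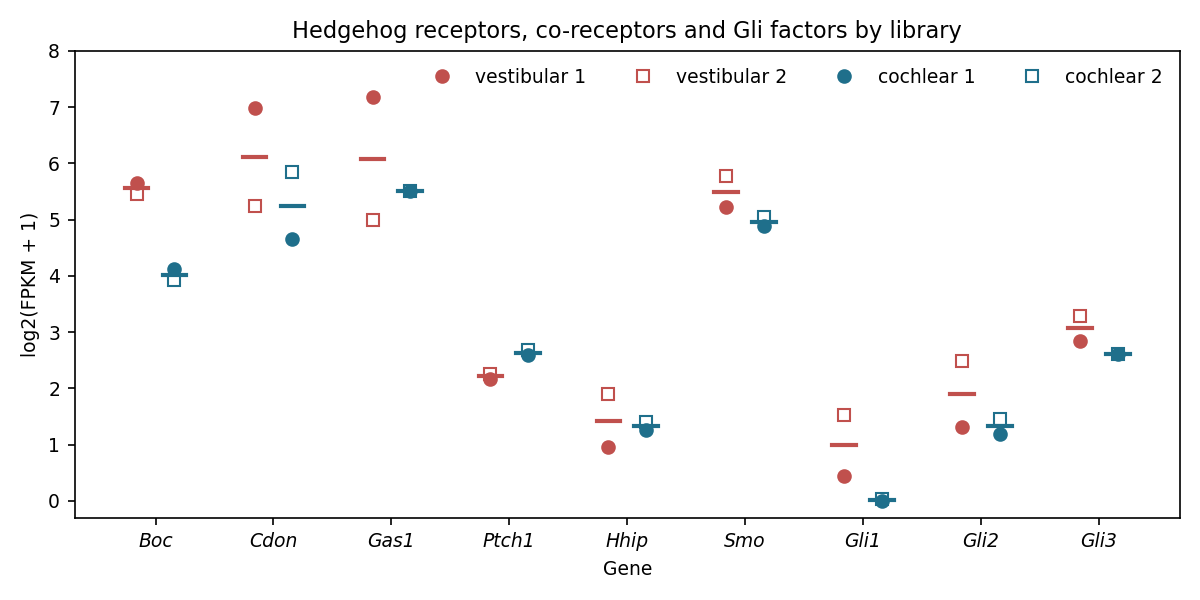
Levels of the 9 genes as log2(FPKM + 1) in each library, with vestibular libraries in red left of cochlear libraries in blue; filled circles are library 1, open squares library 2, and bars the group means. Boc is the gene with the widest gap between tight groups, Cdon and Gas1 are spread within the vestibular group, Ptch1 is the only one of the 9 with both vestibular libraries below both cochlear libraries, and Gli1 lies at or near 0 in the cochlear libraries.

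Of the 8 genes tested, 0 passed the adjusted threshold, where 0.0303% of all genes did (4 of 13200, of which 0 were higher in vestibular cultures). At an unadjusted p under 0.05 there was 1 gene higher in vestibular cultures, Boc, against 7.61% of all genes, and 1 lower, Ptch1, against 10.6%, so 2 of 8 in all, against 18.2%. The count changed with the library left out, and such fits hold 1 library in a group, so their counts of the 8 are not compared here. The groups did not overlap in 3 of the 8 with vestibular above cochlear (Boc, Smo and Gli3), against 26.9% of all genes, and in 1 with vestibular below cochlear (Ptch1), against 28.4%, so 4 of 8 in all, against 55.3%. The median log2 difference of the 8 was 0.55, beside 0.01 for all genes tested, and was 0.24 without vestibular library 2. Vestibular library 2 held the highest value of 5 of the 9 genes (Smo, Gli1, Gli2, Gli3 and Hhip), vestibular library 1 that of Boc, Cdon and Gas1, and cochlear library 2 that of Ptch1. The share of all genes that were highest in each library is not given here, so these counts have no background.

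**Figure D2:**
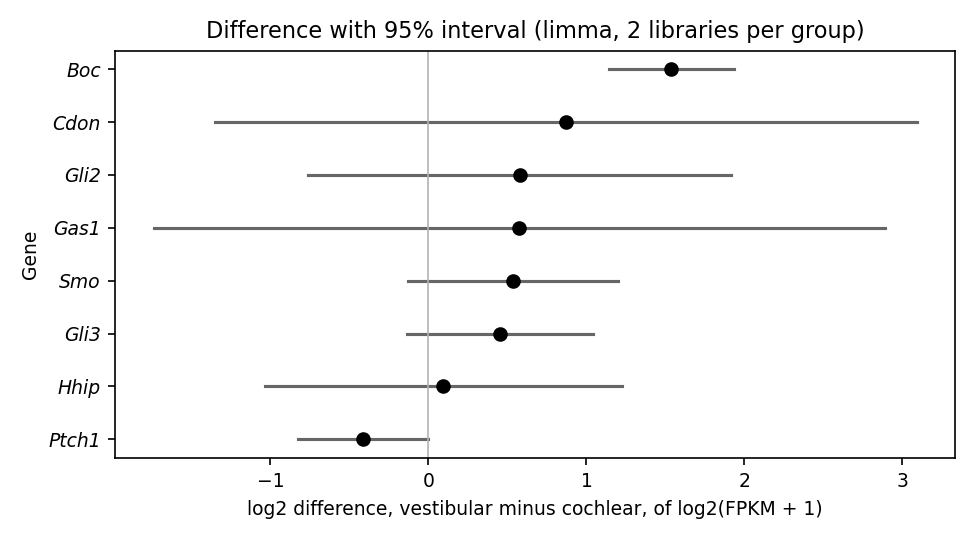
The log2 difference, vestibular minus cochlear, of log2(FPKM + 1) for the 8 genes tested, as points with 95% intervals from limma (2 libraries per group). The interval of Boc runs from 1.14 to 1.93, that of Ptch1 ends just below 0, and the other 6 include 0.

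Boc encodes a cell-surface protein with immunoglobulin and fibronectin repeats that binds hedgehog ligand together with Ptch1. Boc stood at 49.5 and 43.1 FPKM in vestibular 1 and vestibular 2, against 16.4 and 14.2 FPKM in cochlear 1 and cochlear 2. The groups lay far apart and each was tight: the higher library exceeded the lower by 1.15-fold in either group, and the vestibular mean was 3.03 times the cochlear mean (46.3 ± 4.52 FPKM in vestibular and 15.3 ± 1.55 FPKM in cochlear cultures, SD, n = 2 each). Its log2 difference was 1.54 (SE 0.14, 95% interval 1.14 to 1.93), and 96.9% of all genes tested had a lower one. Its unadjusted p was 0.00054 and its limma adjusted p 0.0902, so Boc did not pass. The difference was 1.44 to 1.64 when any single library was left out, with adjusted p of 0.108 to 0.536. Boc maps to chromosome 16 (44485049 to 44558897, minus strand, mm10).

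Cdon, a relative of Boc with the same role, stood at 125 and 37.0 FPKM in vestibular 1 and vestibular 2, against 24.1 and 56.3 FPKM in cochlear 1 and cochlear 2. The groups overlapped, since vestibular library 1 lay above all others and vestibular library 2 lay between the cochlear libraries. Between groups the log2 difference was 0.87 (SE 0.78, 95% interval -1.35 to 3.09; limma adjusted p 0.571), and without vestibular library 1 it was 0.0051. Cdon maps to chromosome 9 (35421128 to 35507652, plus strand).

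Gas1 encodes a lipid-anchored co-receptor that is unrelated in sequence to Boc and Cdon. Gas1 stood at 144 and 30.7 FPKM in vestibular 1 and vestibular 2, against 44.4 and 44.5 FPKM in cochlear 1 and cochlear 2. The vestibular libraries lay on opposite sides of the cochlear ones and differed 4.68-fold from each other, against 1.004-fold between the cochlear libraries. The log2 difference was 0.57 (SE 0.81, 95% interval -1.74 to 2.89; limma adjusted p 0.721), and without vestibular library 1 it turned to -0.52. Gas1 maps to chromosome 13 (60174405 to 60177365, minus strand), and an annotated noncoding RNA gene of the other strand (Gm48488) overlaps it.

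The co-receptor genes took different shares of their summed level in each library. Boc, Cdon and Gas1 together reached 318 and 111 FPKM in vestibular 1 and vestibular 2, against 84.8 and 115 FPKM in cochlear 1 and cochlear 2, and the groups overlapped. Boc made up 15.6% and 38.9% of this sum in the vestibular libraries, against 19.3% and 12.3% in the cochlear libraries. Gas1 was the largest part in vestibular library 1 (45.1%) and in cochlear library 1 (52.3%), Cdon in cochlear library 2 (48.9%), and Boc in vestibular library 2.

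**Figure D3:**
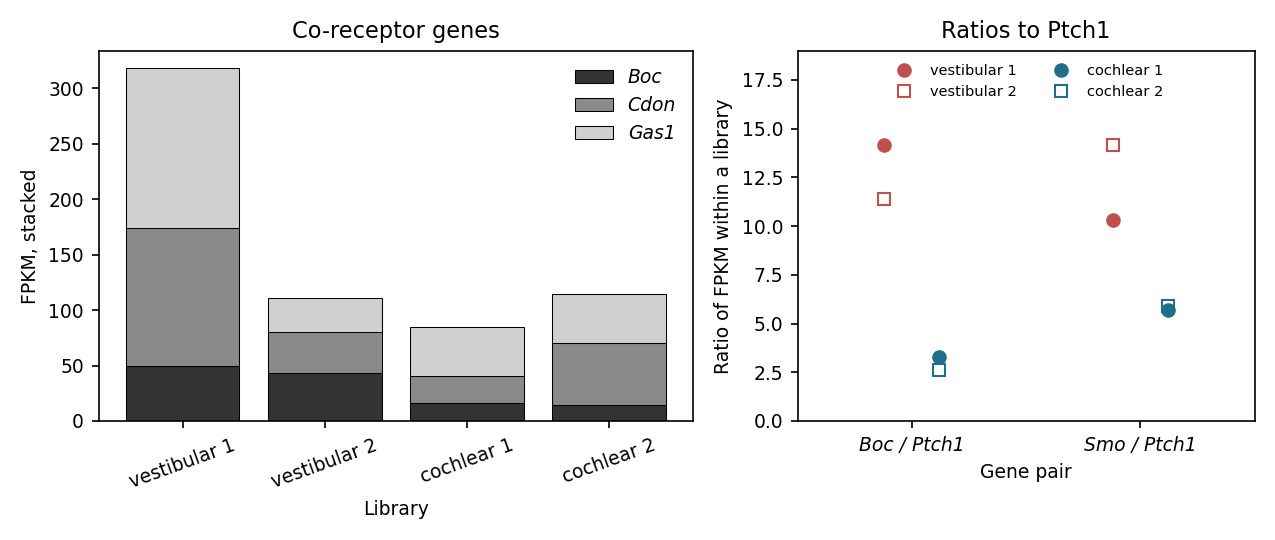
Left, FPKM of the co-receptor genes stacked by library; vestibular library 1 reaches 318 FPKM and the other 3 lie between 84.8 and 115 FPKM. Right, the ratio of Boc and of Smo to Ptch1 within each library; the vestibular pair lies above the cochlear pair for either ratio.

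Ptch1 encodes the hedgehog receptor and is itself a target of the pathway. Ptch1 stood at 3.50 and 3.79 FPKM in vestibular 1 and vestibular 2, against 5.001 and 5.39 FPKM in cochlear 1 and cochlear 2. Both vestibular libraries lay below both cochlear libraries, with a 1.08-fold distance between the libraries of either group. Its log2 difference was -0.42 (SE 0.14, 95% interval -0.83 to -0.0053), the unadjusted p 0.0483 and the limma adjusted p 0.271. Ptch1 thus did not pass, and 15.4% of all genes had a lower difference. Leaving out 1 library in turn, the difference was -0.46 to -0.37 and the unadjusted p 0.084 to 0.193. The epithelial markers were lower in the same direction, and their part in the Ptch1 values was not tested. Ptch1 maps to chromosome 13 (63508328 to 63573598, minus strand).

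Set within a library, the balance of Boc and Smo to Ptch1 separated the groups. The ratio of Boc to Ptch1 FPKM was 14.1 and 11.4 in vestibular 1 and vestibular 2, against 3.28 and 2.63 in cochlear 1 and cochlear 2. The ratio of Smo to Ptch1 was 10.3 and 14.2 in the vestibular libraries, against 5.70 and 5.91 in the cochlear libraries. The groups did not overlap in either ratio, which follows from the levels given for each gene, and no test of them can reach the threshold by permutation at this sample number.

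Hhip, the ligand-binding antagonist, stood at 0.944 and 2.72 FPKM in vestibular 1 and vestibular 2, against 1.39 and 1.65 FPKM in cochlear 1 and cochlear 2. The vestibular libraries enclosed the cochlear ones, and the log2 difference was 0.09 (SE 0.39, 95% interval -1.03 to 1.22; limma adjusted p 0.913). Without vestibular library 2 it was -0.37, and under quantile normalization -0.04. Hhip maps to chromosome 8 (79965851 to 80058006, minus strand).

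Promoter windows of Ptch1 and Hhip are shown because both genes are known to be switched on through Gli factors, while the groups lay apart for Ptch1 and overlapped for Hhip. The sequences are the 250 bases before a RefSeq start of each gene on GRCm38.p6, written 5′ to 3′ on the strand of the gene. They are chr13:63565736-63565985 for Ptch1 and chr8:80058009-80058258 for Hhip, both on the minus strand. The Ptch1 window lies inside the gene as mapped above (63508328 to 63573598), so it is not the sequence before the outer start of that gene. Capitals mark a stretch nearest to the Gli binding motif GACCACCCA, searched on both strands (TGGGTGGTC on the other).
Ptch1: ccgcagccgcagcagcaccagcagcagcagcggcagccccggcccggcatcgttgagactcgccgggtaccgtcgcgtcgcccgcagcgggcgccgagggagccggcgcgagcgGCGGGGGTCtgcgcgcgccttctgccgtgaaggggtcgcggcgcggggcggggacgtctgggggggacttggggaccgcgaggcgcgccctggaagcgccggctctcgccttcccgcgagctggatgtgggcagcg
Hhip: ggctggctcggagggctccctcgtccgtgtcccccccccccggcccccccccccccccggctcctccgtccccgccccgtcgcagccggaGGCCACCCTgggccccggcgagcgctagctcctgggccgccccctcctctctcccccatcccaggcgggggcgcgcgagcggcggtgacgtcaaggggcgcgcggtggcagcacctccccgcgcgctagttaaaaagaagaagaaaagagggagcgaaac
Neither window held the motif exactly. In Ptch1, 4 stretches were equally near, each differing at 3 of 9 letters, and the capitals mark the first of them, on the opposite strand and 127 bases before the end of the window. In Hhip the nearest stretch differed at 2 of 9 letters, on the strand of the gene and 151 bases before the end. Windows were found for 7 of the 9 genes, and 0 of these 7 held an exact match, against 74 of all 32851 RefSeq windows (0.225%). Those of Cdon and Gli3 also began inside the mapped gene. A stretch with at most 2 differing letters occurred in 3 of the 7 (Hhip, Smo and Gli2) and in 51.8% of all windows. These are counts of letters in short windows and are no measure of binding.

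Smo encodes the membrane protein that relays the signal from Ptch1 into the cell. Smo stood at 36.1 and 53.7 FPKM in vestibular 1 and vestibular 2, against 28.5 and 31.8 FPKM in cochlear 1 and cochlear 2. The vestibular libraries were the higher pair, by the most in vestibular library 2. Between groups the log2 difference was 0.53 (SE 0.23, 95% interval -0.13 to 1.20; limma adjusted p 0.332), and it was 0.25 without vestibular library 2 and 0.81 without vestibular library 1. Smo maps to chromosome 6 (29735503 to 29761365, plus strand).

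Gli1, a transcriptional activator whose RNA is the most used readout of hedgehog signalling, was scarce. Gli1 stood at 0.364 and 1.88 FPKM in vestibular 1 and vestibular 2, against a listing at 0 in cochlear library 1 and 0.0261 FPKM in cochlear library 2. The vestibular libraries were above the cochlear ones and differed 5.17-fold between themselves, and no fold between groups is given against values at or near 0. Gli1 was below the minimum for testing. In a fit of the 18257 genes above 0 in any library its log2 difference was 0.97 (SE 0.41, 95% interval -0.21 to 2.15; limma adjusted p 0.366). Gli1 maps to chromosome 10 (127329882 to 127341974, minus strand), and its end overlaps Arhgap9 of the other strand, with 12.3 and 8.69 FPKM in the vestibular libraries, against 8.75 and 0.113 FPKM in the cochlear libraries. The sources used here do not give the strand setting of the counting, so fragments of the overlapping ends could be shared.

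Gli2, the main activator in most tissues, stood at 1.498 and 4.58 FPKM in vestibular 1 and vestibular 2, against 1.29 and 1.73 FPKM in cochlear 1 and cochlear 2. Vestibular library 1 lay between the cochlear libraries, so the groups overlapped, and vestibular library 2 lay above the rest. The log2 difference was 0.58 (SE 0.47, 95% interval -0.77 to 1.92; limma adjusted p 0.539), and without vestibular library 2 it was -0.0031. Gli2 maps to chromosome 1 (118834132 to 119053619, minus strand).

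Gli3, the main source of the repressor form, was the highest of the Gli genes in every library. Gli3 stood at 6.15 and 8.79 FPKM in vestibular 1 and vestibular 2, against 5.14 and 5.09 FPKM in cochlear 1 and cochlear 2. The groups did not overlap and the cochlear libraries lay close together. Its log2 difference was 0.45 (SE 0.21, 95% interval -0.14 to 1.04; limma adjusted p 0.347), and it was 0.23 without vestibular library 2. Gli3 maps to chromosome 13 (15463235 to 15730026, plus strand).

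Among the Gli genes, Gli3 made up 76.8% and 57.6% of their summed FPKM in vestibular 1 and vestibular 2, against 79.9% and 74.3% in cochlear 1 and cochlear 2. Gli1 made up 4.54% and 12.3% in the vestibular libraries, against 0% and 0.381% in the cochlear libraries. Vestibular library 2 thus had the lowest share of Gli3 and the highest of Gli1 and Gli2, and RNA levels do not tell how much Gli3 protein was cut to the repressor. This library also had the highest value of 7 of the 12 cartilage markers, among them the type II collagen gene Col2a1 at 543 and 2365 FPKM in the vestibular libraries, against 83.9 and 38.5 FPKM in the cochlear libraries. The marker with the next highest mean, the chondromodulin gene Lect1, went the other way, with 122.5 and 33.7 FPKM in the vestibular libraries, against 327 and 853 FPKM in the cochlear libraries, and the cartilage factor gene Sox9 overlapped, with 17.4 and 29.4 FPKM in the vestibular libraries, against 28.7 and 29.5 FPKM in the cochlear libraries. Comp, which is among the 7, and Hapln1, Matn1 and Matn3 stayed below 1 FPKM in every library. The share of all genes that were highest in vestibular library 2 is not given here, so the count of 7 has no background. The part of cartilage cells in the values of Smo, Gli1, Gli2, Gli3 and Hhip was not tested.

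The order of the 9 genes by mean level was alike in both groups at its top. Gas1, Cdon, Boc and Smo led in vestibular cultures, where the ranges of neighbours in that order overlapped, and Smo was separate from Gli3 below it. In cochlear cultures Gas1 and Cdon again led, Smo came next with a range that overlapped that of Cdon, and Boc stood apart below Smo and above Ptch1. Gli3 was separate from Ptch1 below it in vestibular cultures (7.47 ± 1.86 FPKM for Gli3 and 3.65 ± 0.205 for Ptch1), whereas in cochlear cultures these genes overlapped (5.12 ± 0.0366 for Gli3 and 5.20 ± 0.277 for Ptch1, SD, n = 2 each). Gli1 was last in both.

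Since fibroblast markers were higher in vestibular cultures, each gene was also set against the median of the 13 fibroblast markers in the same library, on the log2(FPKM + 1) scale. That median was 6.88 and 7.08 in vestibular 1 and vestibular 2, against 6.12 and 5.80 in cochlear 1 and cochlear 2. Its group means differed by 1.02, so this measure lowers the log2 difference of every gene by that same amount. A difference between 0 and 1.02 as deposited thus turns below 0 by construction, whatever the gene. Boc lay -1.22 and -1.61 from it in the vestibular libraries, against -2.0015 and -1.87 in the cochlear libraries, so the groups still did not overlap and the log2 difference was 0.52 in place of 1.54. Ptch1 lay -4.71 and -4.82 from it in the vestibular libraries, against -3.54 and -3.12 in the cochlear libraries, a difference of -1.44. The vestibular libraries lay below the cochlear ones for Smo (difference -0.49) and Gli3 (-0.57), opposite to their levels as deposited. These turns follow from the shared shift and are not particular to Smo or Gli3. The groups overlapped for Cdon and Gas1. They also overlapped for Gli1 (difference -0.05) and Gli2 (-0.44), while for Hhip the vestibular libraries lay below the cochlear ones (-0.93). All of Gli1, Gli2 and Hhip had low levels. The log2 difference of Hhip as deposited was 0.09, so its value here mostly carries the marker median. Whether the hedgehog genes are expressed in the fibroblasts of these cultures was not tested.

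**Figure D4:**
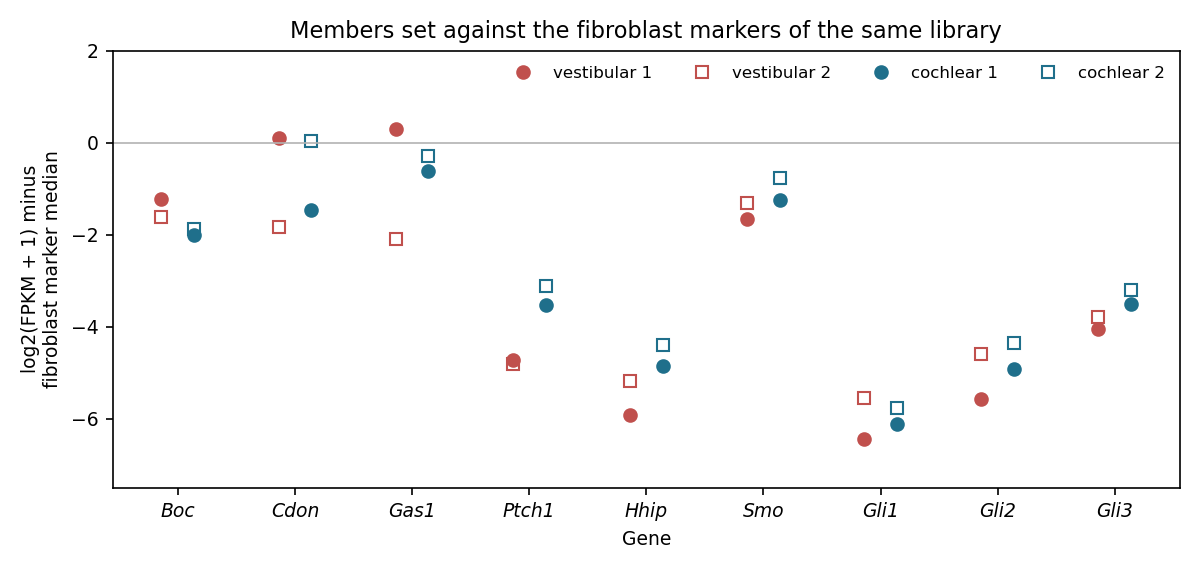
Each gene's log2(FPKM + 1) minus the median of the 13 fibroblast markers in the same library, with vestibular libraries in red left of cochlear libraries in blue (filled circles library 1, open squares library 2). Boc is the only one of the 9 with both vestibular libraries above both cochlear libraries on this measure, and Ptch1 has both below, 1.44 apart on average. Every gene's difference is lowered by the same 1.02 on this measure.

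The genes with profiles most like those of Boc, Ptch1 and Smo, the members with the smallest p, were found among 9586 or 9587 other genes with a mean of at least 5 FPKM, by the Euclidean distance between centred log2 profiles over the 4 libraries. Closest to Boc were the adhesion gene Vcam1 (distance 0.11), the guidance ligand gene Slit3 (0.12) and the matrix gene Postn (0.15). Postn is also 1 of the 13 fibroblast markers, whose log2 differences ran from 0.30 to 2.95, a range that includes that of Boc (1.54). Vcam1 had 50.6 and 49.1 FPKM in vestibular cultures, against 18.0 and 15.8 FPKM in the cochlear libraries. Closest to Ptch1 were Wipf2 (0.022), Mrpl47 (0.025) and Fam8a1 (0.025), and closest to Smo were Arl15 (0.030), Pitpnm2 (0.063) and Sec31a (0.064). With 4 libraries many genes share a profile, and no shared function is implied.

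The hedgehog ligand genes were listed near 0 in these cultures. Shh had at most 0.0426 FPKM, Ihh at most 0.126 and Dhh at most 0.388 FPKM in any library. Of the 10 genes of ligands and their release, 4 were tested, 0 passed the adjusted threshold and 1 had an unadjusted p under 0.05, where 18.2% of all genes did. That gene was Disp1, which encodes the transporter that releases lipid-modified ligand and is a structural relative of Ptch1. Disp1 stood at 7.39 and 5.49 FPKM in vestibular 1 and vestibular 2, against 19.6 and 18.0 FPKM in cochlear 1 and cochlear 2. The groups did not overlap, and the log2 difference was -1.42 (SE 0.18; unadjusted p 0.00178, limma adjusted p 0.112). Scube3, a secreted aid to ligand release, overlapped between groups with 11.4 and 2.48 FPKM in vestibular cultures, against 5.12 and 9.49 FPKM in cochlear cultures. Hhat, the acyltransferase that adds a lipid to the ligand, had 1.51 and 1.61 FPKM in vestibular cultures, against 1.19 and 1.96 FPKM in cochlear cultures. Scube1, a relative of Scube3, had 0.990 and 2.39 FPKM in vestibular cultures, against 3.17 and 1.44 FPKM in cochlear cultures.

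Of other ligand-binding surface proteins (7 genes listed, 4 tested), none passed the adjusted threshold in limma or had an unadjusted p under 0.05, that is 0 of 4 by either count, against 0.0303% and 18.2% of all genes. The glypican gene Gpc4 had 58.1 and 50.6 FPKM in the vestibular libraries, against 47.2 and 43.9 FPKM in the cochlear libraries (log2 difference 0.25). Gpc6 had 17.5 and 27.2 FPKM in the vestibular libraries, against 18.0 and 16.8 FPKM in the cochlear libraries. Gpc3, a glypican that competes with Ptch1 for ligand, had 10.4 and 3.47 FPKM in vestibular cultures, against 2.33 and 5.38 FPKM in cochlear cultures. Lrp2, the endocytic receptor megalin, had 18.1 and 4.69 FPKM in the vestibular libraries, against 9.33 and 36.5 FPKM in the cochlear libraries. Groups overlapped for Gpc6, Gpc3 and Lrp2.

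The intracellular relay was expressed in every library, with a median log2 difference of 0.26 over its 19 genes, beside 0.01 for all genes. Of the 19, 17 had a difference above 0, where 6788 of 13200 genes did, and 0 passed the adjusted threshold. At an unadjusted p under 0.05, 1 was higher and 1 lower in vestibular cultures, so 2 of 19, against 18.2% of all genes. Without vestibular library 2 the median was 0.16. The higher one was Evc2, a ciliary partner of Smo, with 14.6 and 15.7 FPKM in the vestibular libraries, against 11.3 and 12.3 FPKM in the cochlear libraries (log2 difference 0.34, limma adjusted p 0.266). The lower one was Cul3, which encodes the scaffold of the ubiquitin ligase that acts with Spop on full-length Gli proteins, with 40.0 FPKM in either vestibular library, against 51.5 and 54.8 FPKM in the cochlear libraries (log2 difference -0.40, limma adjusted p 0.205). Spop itself overlapped between groups, with 60.1 and 86.1 FPKM in the vestibular libraries, against 63.8 and 62.3 FPKM in the cochlear libraries. Among genes for kinases that mark Gli proteins for cutting, Prkaca, the catalytic subunit of protein kinase A, had 57.6 and 57.5 FPKM in vestibular cultures, against 50.9 and 59.9 FPKM in cochlear cultures. Its regulatory subunit gene Prkar1a had 127 and 139 FPKM in vestibular cultures, against 114 and 111 FPKM in cochlear cultures, and the casein kinase gene Csnk1a1 had 94.1 and 102 FPKM in vestibular cultures, against 111 and 114 FPKM in cochlear cultures. The limma adjusted p of these kinase genes ran from 0.34 to 0.821.

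Genes of the primary cilium, where Smo and the Gli proteins act, had a median log2 difference of 0.13 over 29 tested, and 0.24 without vestibular library 1. Of the 29, 24 had a difference above 0, against 6788 of 13200 genes. None passed the adjusted threshold in limma (0 of 29), and 5 were higher and 0 lower in vestibular cultures at an unadjusted p under 0.05, against 7.61% and 10.6% of all genes. In either direction that was 5 of 29, against 18.2% of all genes. The 5 were Ift80, Ift122, Ift22, Wdr35 and Bbs7. The intraflagellar transport gene Ift80 had 14.1 and 17.9 FPKM in the vestibular libraries, against 8.32 and 10.9 FPKM in the cochlear libraries (log2 difference 0.68). Bbs7, of the complex that moves membrane proteins into and out of cilia, had 6.18 and 6.82 FPKM in vestibular cultures, against 3.75 and 3.81 FPKM in cochlear cultures (log2 difference 0.65). Ift122 and Wdr35, of the retrograde transport complex, and Ift22 had differences of 0.45, 0.51 and 0.44, and adjusted p of these 5 genes ran from 0.185 to 0.271. Tulp3, which carries the pathway inhibitor Gpr161 into cilia, had 23.5 and 31.8 FPKM in the vestibular libraries, against 31.9 and 33.9 FPKM in the cochlear libraries. Ift20 had 50.1 and 58.8 FPKM in vestibular cultures, against 42.7 and 46.6 FPKM in cochlear cultures, and Ift52 had 24.2 and 22.9 FPKM in vestibular cultures, against 27.9 and 27.1 FPKM in cochlear cultures.

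Genes known from other mouse tissues to respond to hedgehog went several ways. Of 21 listed, 12 were tested (median log2 difference 0.28, and 0.13 without cochlear library 1). A difference above 0 was found in 8 of the 12, against 6788 of 13200 genes. None passed the adjusted threshold in limma (0 of 12), and 4 were higher and 0 lower in vestibular cultures at an unadjusted p under 0.05. The shares of all genes were 7.61% higher and 10.6% lower, so 18.2% in either direction. The 4 were the forkhead genes Foxc2 and Foxd1, the ligand gene Bmp4, and Rab34, which encodes a GTPase needed for cilium formation. Foxc2 had 14.4 and 26.1 FPKM in the vestibular libraries, against 4.11 and 3.19 FPKM in the cochlear libraries (log2 difference 2.14, SE 0.34; limma adjusted p 0.134). Foxd1 had 17.3 and 25.4 FPKM in vestibular cultures, against 6.31 and 3.64 FPKM in cochlear cultures (log2 difference 1.92, SE 0.33; limma adjusted p 0.146). Bmp4 had 28.4 and 56.3 FPKM in vestibular cultures, against 19.6 and 14.7 FPKM in cochlear cultures (log2 difference 1.19; limma adjusted p 0.261). The groups did not overlap for any of these 3 genes. Over the 12 tested, the groups lay apart in 5 with vestibular above cochlear, against 26.9% of all genes. They lay apart in 0 with vestibular below cochlear, against 28.4%.

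Both forkhead genes and Bmp4 are also under the control of other signals, and the fibroblast markers were higher in the same libraries. The part of those cells in these values was not tested. Rab34 had a smaller difference, with 57.2 and 56.7 FPKM in the vestibular libraries, against 44.6 and 44.7 FPKM in the cochlear libraries (log2 difference 0.34). The cyclin gene Ccnd1 overlapped between groups, with 252 and 85.7 FPKM in the vestibular libraries, against 190 and 360 FPKM in the cochlear libraries. Ccnd2 had 115 and 122 FPKM in vestibular cultures, against 51.3 and 101 FPKM in cochlear cultures. Foxa2 and Nkx2-2, which mark the floor plate and the ventral neural tube, were listed at 0 in all 4 libraries.

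**Figure D5:**
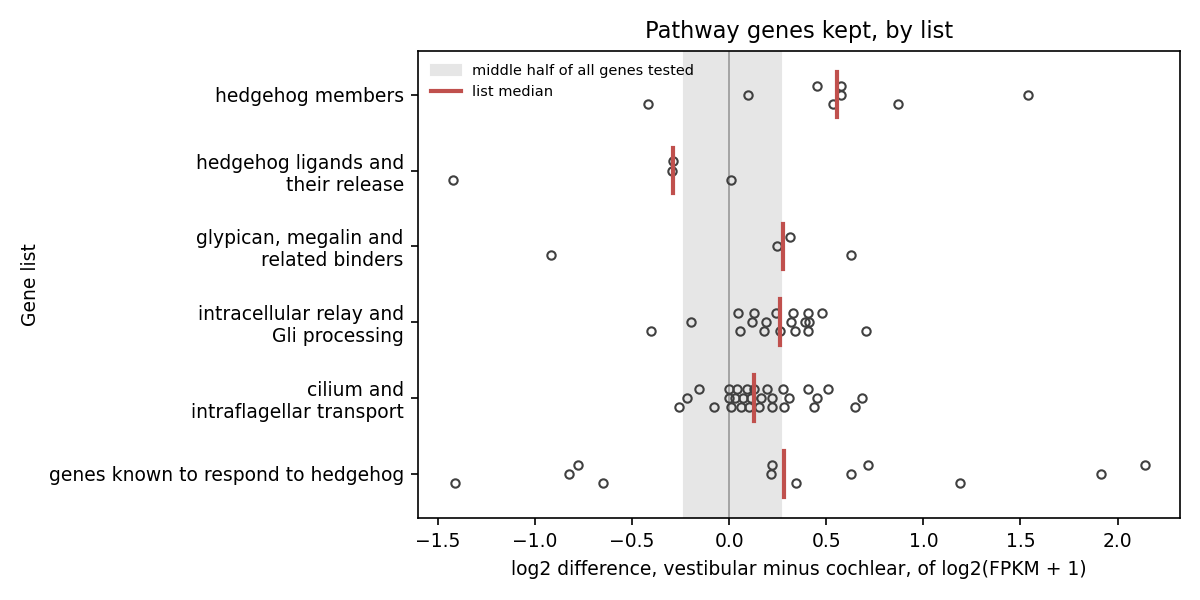
The log2 difference, vestibular minus cochlear, of log2(FPKM + 1) for each gene tested in the 9-gene set and 5 other pathway lists (open circles), with the list median in red and the interquartile range of all genes tested in grey. The median of the 9-gene set was 0.55 (0.24 without vestibular library 2, where that of the hedgehog-responsive list was 0.33), the 4 ligand and release genes tested run from Disp1 at -1.42 to Hhat at 0.01 with a median of -0.29, and the cilium list is narrow (-0.26 to 0.68).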

How the data were processed

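Per the labels' protocols, RNA was isolated with TRIzol and sequenced from TruSeq stranded mRNA libraries. The deposited values are FPKM per gene symbol, per the file headers, in 1 file for each of 4 samples. The submitters' processing notes name Cuffdiff 2.2.1, TopHat2 2.1.1, SAMtools 0.1.18 and Bowtie2 2.2.8 with the mm10 build, and the sources used here give neither settings, annotation, use of strand nor scaling between samples. FPKM depends on the transcript model, and fragment numbers are not known. Ratios of low values of short noncoding genes (tolerance 0.1%) had a most common value of 1.02 to 1.16 in 5 of 6 pairs of libraries, shared by 5 to 8 genes. Between the cochlear libraries it was 2.05, shared by 4 of 28 genes. The ratio of vestibular 1 was 1.13 to cochlear 1 and 1.16 to cochlear 2, and that of vestibular 2 was 1.02 and 1.04. The value of 2.05 thus does not match the other pairs, and relative depth is only roughly known.

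Samples were grouped by the cell type label. The 13200 genes whose mean reached 1 FPKM were kept, and log2(FPKM + 1) was fitted with limma 3.58.1 in R 4.3.3 (lmFit, eBayes with trend, prior degrees of freedom 1.71). The fit was also run on simulated independent libraries with normal values and gene spreads shuffled over genes. Shuffling removes the link of spread and level that the trend uses, so that run is no check of the trend in these data. No count model was used, since the values are FPKM.

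The 9 genes and the gene lists were chosen with earlier results of these data known, so lists are described by counts and medians without a set test. Named genes are the 9, the 4 highest genes of each pathway list, its genes at an unadjusted p under 0.05, the 2 highest of each marker list, of which those that bear on a result are given, and the 3 nearest profiles of 3 genes; the ligand genes, Rpl26, Arhgap9, Foxa2, Nkx2-2, Sox9, Pou4f3, Otof and the cell type markers near 0 were named after their values were seen. Of the listed symbols, Disp3, Grk2 and Cnmd were matched through RefSeq synonyms. Positions are those of GENCODE M21 (GRCm38, the same assembly as mm10), and promoter sequences from RefSeq (GRCm38.p6). Alternatives covered the pseudocount, the filter, the trend, the scaling, a replicate block and leaving out each library.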

Additional observations from a re-analysis of the deposited data

How the results depend on the processing

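Over the 109 values that the alternatives gave for the 8 genes tested, 99 kept their direction and 10 turned. The filter, the trend and the replicate block leave a gene's difference unchanged by construction, so their values could not turn. The count of 99 includes them and is no measure of stability. The values for Boc (0.52 to 1.64) and Ptch1 (-1.44 to -0.24) kept their direction in every alternative run. Set against the fibroblast markers, the log2 difference was -0.15 for Cdon, -0.45 for Gas1, -0.49 for Smo, -0.44 for Gli2, -0.57 for Gli3 and -0.93 for Hhip. Those turns come from the same shift of 1.02 applied to every gene. Under quantile normalization Hhip was at -0.043. Leaving out 1 library gave -0.52 to 1.67 for Gas1, -0.0031 to 1.16 for Gli2 and -0.37 to 0.56 for Hhip; the causes were not tested. The count of the 8 past the threshold was 0 in every alternative, with 9 tested without the filter and 5 at a mean of at least 5 FPKM.

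The median log2 difference of the 8 was 0.39 with a pseudocount of 5, and 0.24 to 0.62 when 1 library was left out. That of the 4 ligand and release genes was 0.03 with no filter on low values, where more of the list entered, -0.85 at a mean of at least 5 FPKM and -0.58 to -0.29 when 1 library was left out. Over all genes, 4 passed as reported, 2 with no filter on low values, where more genes were tested, and 0 with any 1 library left out, where the lone library was assumed to vary like the other group. At an unadjusted p under 0.05 there were 1019 to 2720 genes in those fits.

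The replicate numbers are not stated to mark a shared batch, and deviations of the libraries numbered 1 from their group means had a correlation of 0.043 over 13200 genes. With the replicate block, 0 genes passed, 1887 had an unadjusted p under 0.05, and the adjusted p of Boc was 0.271. Depth limits what can be said of Gli1, Hhip and Gli2, whose values were low (at most 4.58 FPKM, in Gli2).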
